A study of Mus musculus with 35 samples.

Results

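The genes described here code for potassium channels of neurons and for the auxiliary subunits bound to them. They were taken from a fixed list of 40 gene symbols, which was chosen with earlier results of these data known. For each gene 1 probe set was used, the brightest on average, chosen separately for the arrays after surgery and those of naive mice. It differed between these sets of arrays for Kcnc1, Kcnh3, Kcnj6 and Kcnip4. Of the 40 symbols, 39 were measured, among 18193 genes in all. Kcnb2 had no probe set under its symbol in the annotation used. By role they comprised 4 Shaker-type, 3 Shaw-type and 2 Shal-type voltage-gated alpha subunits, 4 electrically silent modifiers, 4 members of the EAG, ERG and ELK family and 2 KCNQ subunits. A further 6 were inward rectifiers, 3 were leak channels with a pair of pores per subunit, 5 belonged to calcium-activated channels, 2 were Shaker beta subunits and 4 were KChIPs, the calcium-binding partners of Shal channels.

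Potassium channels let potassium leave a neuron, which returns its membrane to rest after an action potential and sets how readily and how often it fires. Voltage-gated, calcium-activated, inwardly rectifying and leak channels do this under different conditions, and beta subunits, KChIPs and silent modifiers change the gating, the kinetics or the surface level of the alpha subunits they join. In ischemic brain, loss of energy supply depolarizes neurons and potassium accumulates outside the cells, so these channels lie at the centre of the early electrical events of stroke.

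RNA was measured on Affymetrix arrays from brain hemispheres of male mice on the FVB background, either wild type or knockout for the beta2 adrenergic receptor. For each genotype, 7 arrays came from the ischemic hemisphere after middle cerebral artery occlusion (MCAO, a model of focal stroke) and 3 from the control hemisphere on the same side after sham surgery, all taken 24 h after surgery. A separate set held 8 wild type and 7 knockout arrays of naive mice, which had no surgery. The labels give no age, no duration of occlusion and no description of the knockout allele, and a whole hemisphere mixes infarcted with surviving tissue. They do not say whether each array is a separate animal, so p-values measure only the spread between arrays. In bulk tissue of this kind, fewer cells of a type and less RNA per cell cannot be told apart.

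All values are log2 signals, and a difference of 1 is a doubling or halving; signals of different genes are not compared, since probe sets differ in brightness. A gene was called when its adjusted p (limma, Benjamini-Hochberg over all 18193 genes) was under 0.05. The arrays of a group were not equal. The actin 3 prime minus 5 prime signal difference, a measure of RNA degradation and labelling, lay between 1.6 and 1.76 on the knockout sham arrays and between 0.86 and 1.01 on the wild type sham arrays, with wider ranges after MCAO (0.39 to 1.7 in wild type, 0.43 to 1.75 in knockout mice). The same difference for Gapdh was 0.38, 0 and 1.18 on knockout MCAO arrays 2, 4 and 5, and -0.27 to -0.13 on the other surgery arrays. Pairs of arrays within the MCAO groups were close to each other (wild type 1 and 2, 5 and 7; knockout 1 and 6, 2 and 5), with the highest correlation at 0.998 over all probe sets. Neuron markers were measured to check the labelled tissue: the mean of 10 such genes, among them Snap25 and Syt1, lay between 12.06 and 12.62 on the 20 surgery arrays.

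The RefSeq promoter table (GRCm38.p6) held at least 1 window for 31 of the 39 genes. In each of the 49 windows the 250 bases before its annotated start were read, which for some genes is an internal start. The 4 printed below belong to the genes with the largest wild type falls after MCAO that had a window; Kcnv1, the largest fall, had none. Capitals mark the GC box (GGGCGG on either strand), a common element of promoters without a TATA box. The window of Kcnip2, which codes for a KChIP, lies at chr19:45816064-45816313 on the minus strand; that of Kcna4, a Shaker-type channel gene, at chr2:107290339-107290588 on the plus strand; that of Kcnj3, a subunit of the G protein-gated inward rectifier, at chr2:55435720-55435969 on the plus strand; and that of Kcnd2, a Shal-type channel gene, at chr6:21215096-21215345 on the plus strand.
Kcnip2: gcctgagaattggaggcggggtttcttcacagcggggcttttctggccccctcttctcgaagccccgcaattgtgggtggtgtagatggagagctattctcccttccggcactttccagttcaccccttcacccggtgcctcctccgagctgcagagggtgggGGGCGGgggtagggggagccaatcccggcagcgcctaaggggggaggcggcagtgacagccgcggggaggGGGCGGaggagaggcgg
Kcna4: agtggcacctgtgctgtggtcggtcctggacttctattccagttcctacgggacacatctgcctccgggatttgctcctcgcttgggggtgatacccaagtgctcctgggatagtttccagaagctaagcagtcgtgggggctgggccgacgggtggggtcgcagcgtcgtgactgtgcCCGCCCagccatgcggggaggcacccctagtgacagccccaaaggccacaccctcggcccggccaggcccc
Kcnj3: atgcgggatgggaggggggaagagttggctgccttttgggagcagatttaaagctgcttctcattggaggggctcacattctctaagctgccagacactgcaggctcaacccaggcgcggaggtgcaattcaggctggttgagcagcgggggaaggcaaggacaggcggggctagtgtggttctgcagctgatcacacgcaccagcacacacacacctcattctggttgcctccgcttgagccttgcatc
Kcnd2: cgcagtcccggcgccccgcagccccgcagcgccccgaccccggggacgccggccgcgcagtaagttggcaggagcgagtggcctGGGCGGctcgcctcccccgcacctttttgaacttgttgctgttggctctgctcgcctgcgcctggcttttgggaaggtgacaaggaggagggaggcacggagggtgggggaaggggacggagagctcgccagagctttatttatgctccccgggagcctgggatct

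The Kcnip2 window held 2 GC boxes, those of Kcna4 and Kcnd2 held 1 each, and that of Kcnj3 held none. The windows of Kcnip2 and Kcnj3 lie inside the annotated genes, each before an internal start. The outer start of neither gene had a window. Over the channel genes with a window, 21 of 31 (67.7%) had a GC box in at least 1 window, against 35.4% of the 27025 genes in the table; the median GC content was 60.4% in the channel windows and 52.4% in all 32851 windows, so base composition differed along with the motif. The letters of a TATA box (TATAAA) were found for 1 of 31 genes (3.2%, against 14.3% of all genes). The full cAMP response element (TGACGTCA) was found in none of the 31, against 1.8% of all genes, and its core (TGACG) in 6 (19.4%, against 19.8%). An E-box (CACGTG) was present for 2 genes (6.5%, against 6.9%) and an AP-1 site (TGANTCA) for 3 (9.7%, against 7.8%). All motifs were searched on both strands; TGACG lies within TGACGTCA. Of the genes with a window, 7 of the 12 that were called lower in wild type mice after MCAO held a GC box, and 14 of the 19 that were not called.

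After MCAO in wild type mice, 15 of the 39 listed genes fell and none rose, where 7.27% of all genes tested were called lower and 8.68% higher (15.9% in either direction). The median change was -0.42 against 0.05 over all genes, with 31 genes negative and 8 positive. For 15 of 39 genes (38.5%) every MCAO array lay below every sham array, against 9.26% of all genes. Averaged over the 39 genes, the sham arrays lay at 9.03 to 9.28 and the MCAO arrays at 8.59 to 8.79, without overlap. With the close pairs of arrays averaged 12 genes were called lower, and without MCAO array 4 of both genotypes 17. The mean of the 10 neuron markers also moved, from 12.38 to 12.62 on the sham arrays to 12.06 to 12.38 after MCAO; 2 of the 10 fell (Nefl by 0.52 and Syt1 by 0.25, adjusted p = 0.0135 and 0.042) and their median change was -0.23. Of 6 markers of striatal medium spiny neurons 3 fell, with a median of -1.31 over the 6 and a list mean of 8.75 to 11.23 on the sham arrays and 8.64 to 9.36 after MCAO. Of 5 markers of infiltrating leukocytes 3 rose, and the mean of the 5 went from 5.89 to 6.03 on the sham arrays to 8.38 to 9.65 after MCAO. The part of these shifts in the channel changes was not tested.

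**Figure D1:**
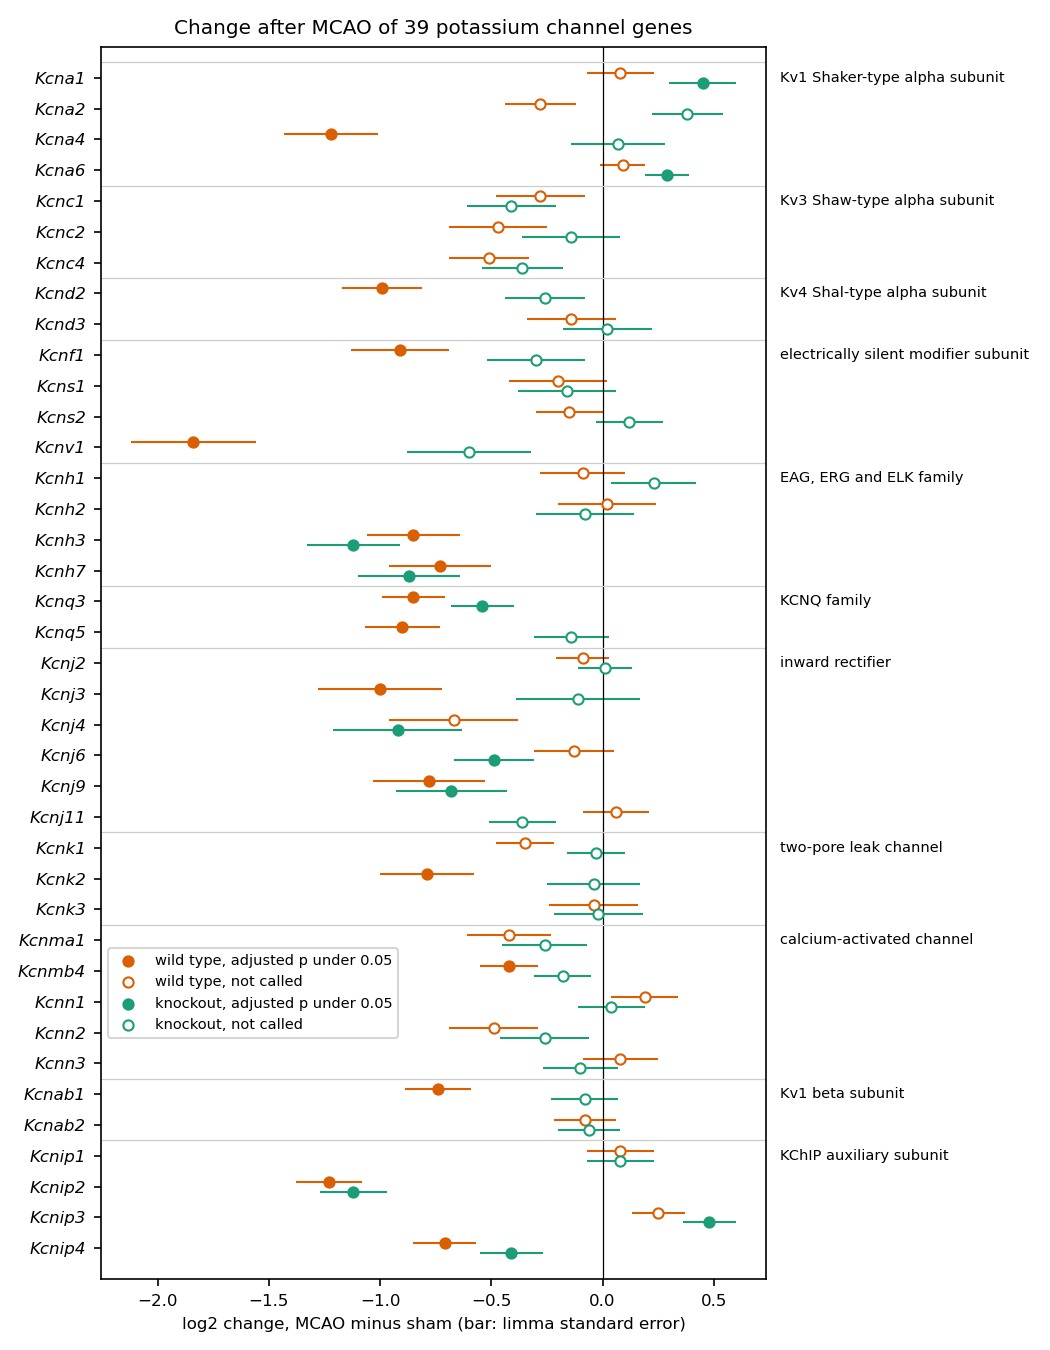
Log2 change from sham to MCAO of each of the 39 genes in wild type (orange) and knockout mice (green), grouped by role, with limma's standard error as bars and filled points for adjusted p under 0.05. Filled orange points all lie left of 0, down to -1.84 for Kcnv1, and filled green points lie on both sides.

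Among the silent modifiers, which form no channel alone and alter Shab-type partners, Kcnv1 showed the largest fall of all 39 genes. Its sham arrays read 9.64, 9.36 and 9.24, and its MCAO arrays ran from 6.62 through a median of 7.73 to 8.03. Every MCAO array was thus more than 1 unit below every sham array, and the change was -1.84 (SE 0.28, adjusted p = 0.000134), 0.28 of the sham level. Both further probe sets of Kcnv1 were called lower as well. Kcnf1, another silent subunit, read 9.54, 9.04 and 9.04 after sham surgery and 7.74 to 8.58 (median 8.36) after MCAO, again with no overlap (-0.91, SE 0.22, adjusted p = 0.00888). Kcns1 and Kcns2, modifiers of the same kind, changed by -0.2 and -0.15 and were not called. The call for Kcnf1 rested on wild type sham array 1, without which its change was -0.74 (adjusted p = 0.0848).

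Of the genes for Shal-type channels, which carry the transient A-type current of dendrites, 1 of 2 fell, and of the genes for their KChIP partners 2 of 4. Kcnd2, which codes for a main neuronal Shal alpha subunit, read 10.83, 11 and 10.9 on the sham arrays and 9.5 to 10.19 (median 9.97) after MCAO, a fall to 0.504 of sham (-0.99, SE 0.18, adjusted p = 0.000722). Kcnip2 went from 11.24, 10.86 and 10.78 to between 9.5 and 9.98 (median 9.73), and had the smallest adjusted p of the 39 genes (-1.23, SE 0.15, adjusted p = 2.24e-05). Neither gene had an MCAO array within the sham range. Of the 2 further Kcnip2 probe sets neither was called and 1 pointed the other way; averaged over all its probe sets the change was -0.89 (adjusted p = 0.00529). Kcnip4, whose product slows the inactivation of Shal channels, was 9.51, 9.45 and 9.47 after sham surgery and 8.41 to 8.99 (median 8.81) after MCAO (-0.71, SE 0.14, adjusted p = 0.00176). The other KChIP genes had small positive values, Kcnip1 at 0.08 and Kcnip3, also known as the repressor DREAM, at 0.25, neither called; Kcnd3, the second Shal-type gene, was at -0.14.

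Of the 4 listed Shaker-type subunits, which set axonal and presynaptic excitability, Kcna4 was the 1 called. It codes for the rapidly inactivating member of the family. Its sham arrays read 7.96, 8.25 and 7.85 and its MCAO arrays 6.41 to 7.19 (median 6.86), so the groups were separated (-1.22, SE 0.21, adjusted p = 0.000594). Kcnab1, a beta subunit that confers fast inactivation on Shaker channels, fell from 10.88, 11.01 and 10.47 to between 9.83 and 10.31 (median 10.05; -0.74, SE 0.15, adjusted p = 0.00179). The axonal subunits Kcna1 and Kcna2 changed by 0.08 and -0.28, Kcna6 by 0.09 and the second beta subunit, Kcnab2, by -0.08. The Shaw-type genes Kcnc1, Kcnc2 and Kcnc4, whose channels let interneurons fire fast, were at -0.28, -0.47 and -0.51 without a call. For Kcnc4 the groups nevertheless did not overlap (sham 9.07 to 9.58, MCAO 8.56 to 9.03; adjusted p = 0.0603).

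Both listed KCNQ genes fell; their channels carry the M current, which acetylcholine suppresses to raise excitability. Kcnq3 had nearly equal sham arrays (10.77, 10.81 and 10.79) and lay between 9.79 and 10.07 (median 9.95) after MCAO (-0.85, SE 0.14, adjusted p = 0.00027). Kcnq5 went from 9.59, 9.55 and 9.25 to between 8.25 and 8.81 (median 8.55; -0.9, SE 0.17, adjusted p = 0.00105). In both genes all 7 MCAO arrays were below all 3 sham arrays. Kcnh3, an ELK channel gene of the forebrain, read 10.15, 9.37 and 9.29 after sham surgery and 8.46 to 9.1 (median 8.78) after MCAO (-0.85, SE 0.21, adjusted p = 0.00814). Sham array 1 stood above the others, and without it the change was -0.58 (adjusted p = 0.111); 1 of 3 further Kcnh3 probe sets pointed the other way. Kcnh7, an ERG channel gene, fell from 6.83, 6.96 and 6.93 to between 5.79 and 6.58 (median 6.15; -0.73, SE 0.23, adjusted p = 0.0311). This call was lost when any sham array or MCAO array 1 was left out (-0.77 to -0.67, adjusted p = 0.0524 to 0.1). Kcnh1 and Kcnh2, the EAG and ERG genes best known from cancer cells and the heart, were at -0.09 and 0.02.

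The inward rectifiers hold the resting potential, and those gated by G proteins pass the slow inhibitory current of many transmitters. Kcnj3, a subunit of the G protein-gated channel, read 9, 8.33 and 8.83 on the sham arrays and 6.64 to 8.09 (median 7.9) after MCAO, with no overlap and 0.499 of the sham level (-1, SE 0.28, adjusted p = 0.0173). Kcnj9, a partner subunit, went from 10.54, 10.54 and 10.85 to between 9.6 and 10.37 (median 9.67; -0.78, SE 0.25, adjusted p = 0.0357), while Kcnj6, the third neuronal subunit, was at -0.13. The Kcnj3 call was lost without sham array 1 or 3 (-0.95 to -0.86, adjusted p = 0.0751 to 0.112). For Kcnj9 it was lost without any of 7 arrays, namely the 3 sham arrays and MCAO arrays 1 to 4 (-0.83 to -0.67, adjusted p = 0.0549 to 0.149), and 1 of its 3 further probe sets pointed the other way. Kcnj4, a strong rectifier of forebrain neurons, was at -0.67 (SE 0.29, adjusted p = 0.117) and Kcnj11, the pore subunit of the ATP-sensitive channel that opens when energy fails, at 0.06. Kcnj2, which codes for another strong rectifier, lay between 3.14 and 3.87 on every surgery array, near the bottom of the signal range, so that little can be read from its change of -0.09.

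Leak channels set the resting potential without gating by voltage. Kcnk2, a mechano- and lipid-sensitive leak channel, read 10.02, 9.87 and 9.35 after sham surgery and 8.42 to 9.73 (median 8.97) after MCAO (-0.79, SE 0.21, adjusted p = 0.0151). Here the groups overlapped, since MCAO array 4 exceeded sham array 3, and the call was lost without sham array 1 or 2 (-0.73 to -0.65, adjusted p = 0.0719 to 0.113). Kcnk1 and Kcnk3 changed by -0.35 and -0.04. Among the calcium-activated channels, which shape the afterhyperpolarization, Kcnmb4, the neuronal beta subunit of the large-conductance channel, fell from 10.44, 10.13 and 10.15 to between 9.6 and 10.06 (median 9.85; -0.42, SE 0.13, adjusted p = 0.0343). Leaving out any of 6 arrays, the 3 sham arrays and MCAO arrays 1, 2 and 7, ended this call (-0.47 to -0.32, adjusted p = 0.0533 to 0.212). Its pore subunit Kcnma1 was at -0.42 and not called. The small-conductance channel genes Kcnn1, Kcnn2 and Kcnn3 were at 0.19, -0.49 and 0.08.

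**Figure D2:**
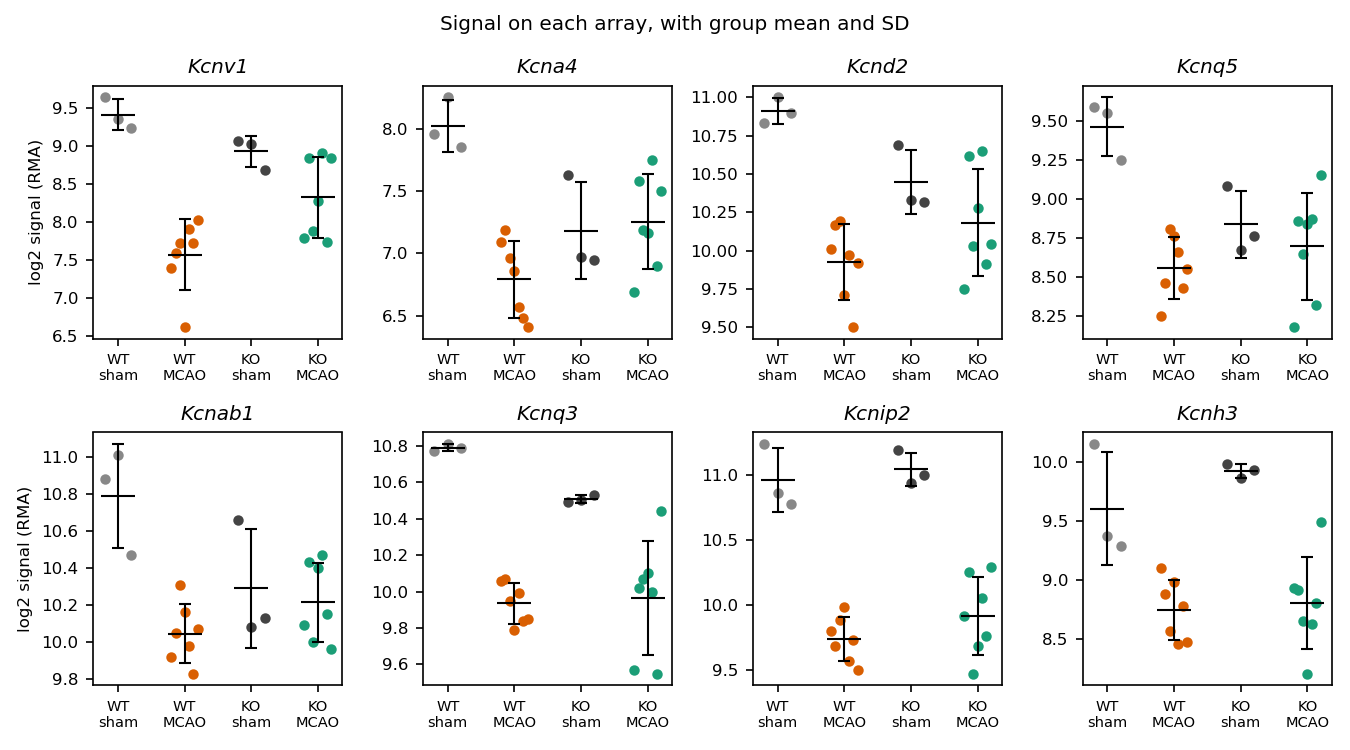
Log2 signal of 8 genes on each surgery array (points), with the group mean and SD as a line and bars, for 3 sham and 7 MCAO arrays per genotype. Wild type MCAO arrays lie below all wild type sham arrays in every panel; in knockout mice they do so for Kcnq3, Kcnip2 and Kcnh3 and overlap the sham arrays for the other genes shown.

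In knockout mice the falls were fewer, and some genes rose. Of the 39 genes, 8 fell and 3 rose, where 8.9% of all genes were called lower and 16.1% higher (25% in either direction). As shares of the 39 these are 20.5% and 7.69%. The median change was -0.14 against 0 over all genes, with 28 genes negative. Groups were separated downward for 4 genes (10.3%, against 9.17% of all genes) and upward for 2 (5.13%, against 15.6%), the first close to its background. The mean over the 39 genes was 8.93 to 9.07 on the sham arrays and 8.59 to 9.04 after MCAO, with overlap. With close pairs averaged 5 genes were called lower and 2 higher. None of the 10 neuron markers and none of the 6 medium spiny neuron markers was called (medians -0.17 and -0.74; limma, adjusted p of at least 0.0789 for the neuron genes), and 3 of 5 leukocyte markers rose.

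Kcnip2 and Kcnh3 had the largest falls in knockout mice. Kcnip2 read 11.19, 10.94 and 11 on the sham arrays and 9.47 to 10.29 (median 9.91) after MCAO (-1.12, SE 0.15, adjusted p = 3.62e-05), and both further probe sets were called lower. Kcnh3 went from 9.98, 9.86 and 9.93 to between 8.21 and 9.49 (median 8.81; -1.12, SE 0.21, adjusted p = 0.000643), and its 3 further probe sets were called lower. Kcnq3 fell less far, from 10.49, 10.5 and 10.53 to between 9.55 and 10.44 (median 10.02; -0.54, SE 0.14, adjusted p = 0.00709). These 3 genes showed no overlap between the groups and stayed called in all 24 other settings tried. Kcnh7 read 6.75, 6.95 and 6.62 after sham surgery and 5.45 to 6.89 (median 5.87) after MCAO (-0.87, SE 0.23, adjusted p = 0.00818), with MCAO array 7 inside the sham range; without sham array 2 its adjusted p was 0.0562 (-0.78).

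The remaining falls in knockout mice were less firm, and those of Kcnj4 and Kcnj9 were not called with the Gapdh measure as a covariate. Kcnj4 read 9.58, 9.13 and 8.89 after sham surgery and 7.44 to 9.45 (median 8.39) after MCAO (-0.92, SE 0.29, adjusted p = 0.024), a call lost without sham array 1 or 2 (-0.96 to -0.73, adjusted p = 0.0691 to 0.124). The G protein-gated subunits Kcnj9 (sham 10.36, 10.5 and 10.39, MCAO 9.09 to 10.66 with a median of 9.92; -0.68, SE 0.25) and Kcnj6 (sham 6.19, 6.66 and 6.47, MCAO 5.52 to 6.45 with a median of 5.94; -0.49, SE 0.18) were just past the threshold. Their adjusted p-values in limma were 0.0486 and 0.0488, and MCAO and sham arrays overlapped in both. Leaving out any of 8 arrays ended the call of Kcnj9 (sham 1 to 3, MCAO 1 and 3 to 6; -0.71 to -0.57, adjusted p = 0.0502 to 0.15), and any of 6 that of Kcnj6 (sham 2 and 3, MCAO 3, 4, 6 and 7; -0.48 to -0.38, adjusted p = 0.0614 to 0.223). Kcnip4 read 9.29, 9.4 and 9.43 after sham surgery and 8.57 to 9.3 (median 8.98) after MCAO (-0.41, SE 0.14, adjusted p = 0.0391), and its call was lost without any of 6 arrays (sham 1 to 3, MCAO 1, 3 and 6; -0.45 to -0.34, adjusted p = 0.0563 to 0.144).

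The 3 rises in knockout mice were small. Kcnip3 went from 9.66, 9.3 and 9.42 to between 9.71 and 10.2 (median 9.99; 0.48, SE 0.12, adjusted p = 0.00662) and Kcna6 from 9.03, 8.92 and 9.09 to between 9.18 and 9.59 (median 9.22; 0.29, SE 0.1, adjusted p = 0.0379), both without overlap. Kcna1 read 11.17, 10.75 and 10.8 after sham surgery and 11.08 to 11.57 (median 11.39) after MCAO, with overlap (0.45, SE 0.15, adjusted p = 0.0279). All 3 calls were lost when the quantile normalization was repeated and when all probe sets of a gene were averaged, settings in which 12 genes fell and 0 rose. With the actin or the Gapdh measure as a covariate, or the replicate number as a block, Kcna1 and Kcna6 were not called and Kcnip3 was. Kcna6 was also not called with only the arrays compared, without MCAO array 4 of both genotypes or with close pairs averaged. The single further probe set of Kcnip3, 1 of 3 of Kcna1 and 1 of 2 of Kcna6 pointed the other way. Without knockout sham array 2 none of the 3 was called, and 8 of the 11 knockout calls were lost, leaving the falls of Kcnip2, Kcnh3 and Kcnq3; Kcna1 and Kcna6 were also not called without sham array 3 (0.37 to 0.4, adjusted p = 0.132 to 0.146 for Kcna1), and Kcna6 not without sham array 1 or MCAO array 2, 4 or 5 either (0.24 to 0.33, adjusted p = 0.0578 to 0.166 over the 6 arrays). For Kcnip3 the value without sham array 2 was 0.41 (adjusted p = 0.0621).

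Set side by side, 6 genes fell in both genotypes: Kcnh3, Kcnh7, Kcnq3, Kcnj9, Kcnip2 and Kcnip4, which are 40% of the 15 wild type falls and 75% of the 8 knockout falls. Over all genes, 281 fell in both, which are 21.3% of the 1322 wild type and 17.3% of the 1620 knockout falls. The wild type falls of Kcna4, Kcnd2, Kcnf1, Kcnv1, Kcnq5, Kcnj3, Kcnk2, Kcnmb4 and Kcnab1 had no counterpart past the threshold in knockout mice, where their changes ran from -0.6 for Kcnv1 to 0.07 for Kcna4. A total of 20 genes were called in at least 1 genotype; the other 19 changed by -0.51 to 0.19 in wild type and by -0.41 to 0.38 in knockout mice.

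**Figure D3:**
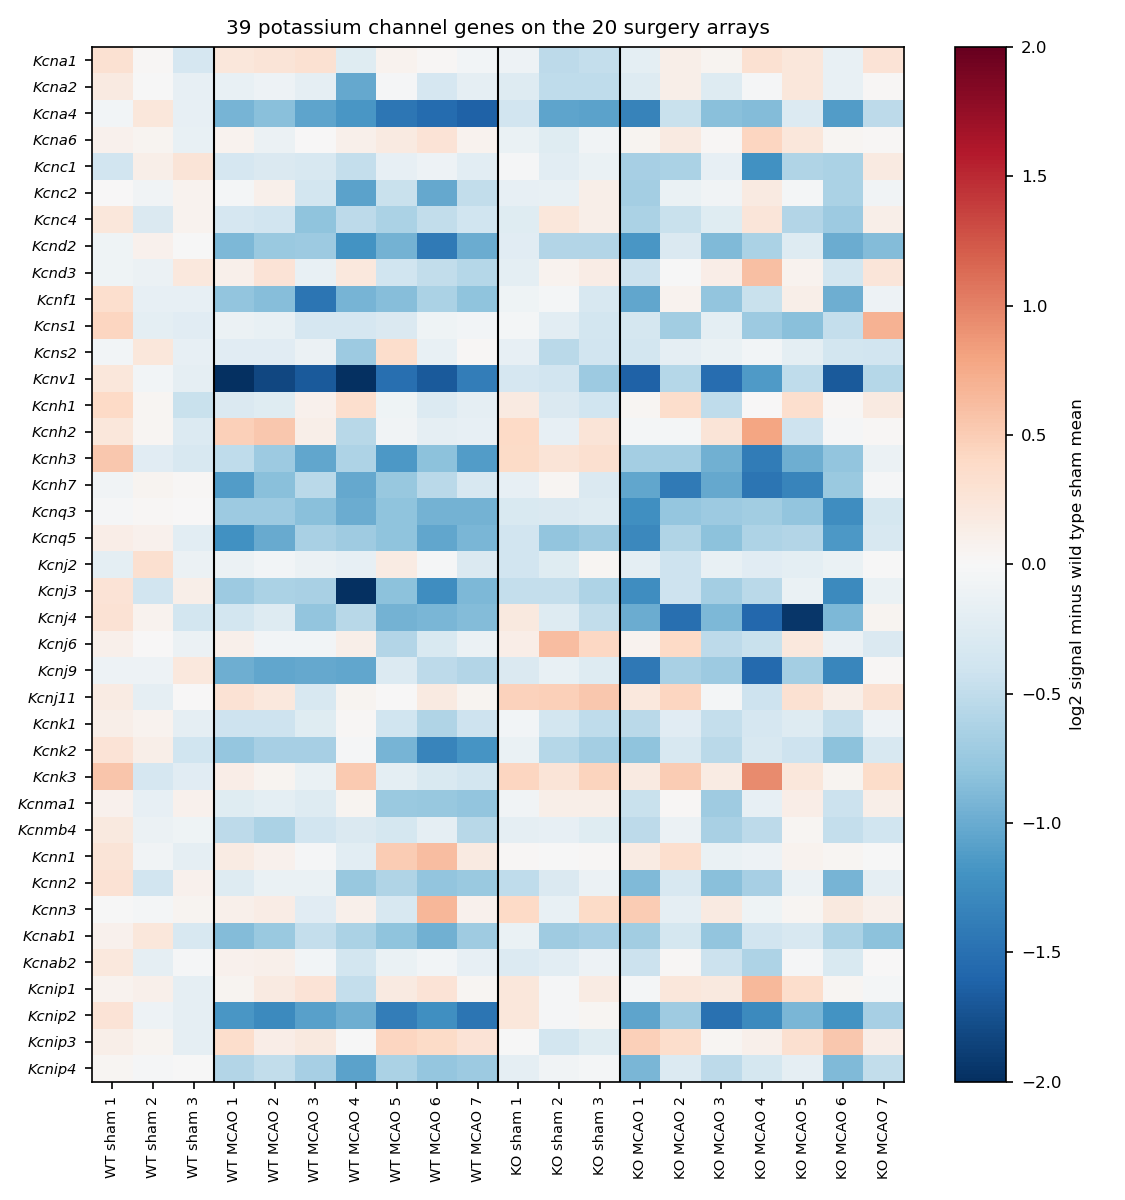
Log2 signal of each of the 39 genes on each of the 20 surgery arrays, minus the gene's wild type sham mean, with blue for lower, red for higher and colours capped at 2 units. Rows such as Kcnv1, Kcna4 and Kcnip2 are blue on all wild type MCAO arrays, and the knockout MCAO arrays differ among themselves.

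Whether a change differed between genotypes was tested as the knockout change minus the wild type change. Of the 39 genes, 4 passed, all with a positive difference, here with the wild type fall the larger. Over all genes 4.09% were called with a positive difference, whether from a fall or a rise, and 5.5% with a negative one (9.59% in all). The share of positive differences among all calls was 42.7%, and 66.6% with each array centred on its median or 22.1% with quantile normalization repeated. Over the 39 genes the median difference was 0.21, against 0.03 over all genes. The 4 genes were Kcna4 (1.29, SE 0.3, adjusted p = 0.0197), Kcnv1 (1.24, SE 0.39, adjusted p = 0.0486), Kcnq5 (0.77, SE 0.24, adjusted p = 0.047) and Kcnab1 (0.66, SE 0.21, adjusted p = 0.0487). The further probe set of Kcna4 had the same sign but was not called. Those of Kcnv1 and Kcnab1 had the same sign, and 1 of 2 of Kcnq5 pointed the other way. For each of Kcna2, Kcnd3 and Kcnip2, 1 further probe set was called with a negative difference, opposite to the probe set used here.

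The array values behind these differences were as follows. Kcna4 read 7.63, 6.97 and 6.95 on the knockout sham arrays and 6.69 to 7.75 (median 7.19) after MCAO, so that every knockout sham array lay below every wild type sham array and the change after MCAO was 0.07. Kcnq5 (knockout sham 9.08, 8.67 and 8.76, MCAO 8.18 to 9.15 with a median of 8.84; -0.14) likewise had all knockout sham arrays below the wild type ones. For Kcnab1 (knockout sham 10.66, 10.08 and 10.13, MCAO 9.96 to 10.47 with a median of 10.15; -0.08) the sham groups overlapped, knockout sham array 1 lying above wild type sham array 3. The knockout sham arrays of Kcnv1 read 9.07, 9.03 and 8.69, again all below the wild type ones. Its knockout MCAO arrays split between 7.74 to 7.89 (arrays 1, 3 and 6) and 8.28 to 8.91 (arrays 2, 4, 5 and 7), a change of -0.6 (SE 0.28, adjusted p = 0.113). Of the higher arrays, 2, 4 and 5 had the raised Gapdh measure given above and array 7 did not (-0.25). The part of the Gapdh measure in this split was not tested. With it as a covariate the differences of Kcnv1, Kcnq5 and Kcnab1 were not called.

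None of these 4 differences was firm. Each of the 4 calls was lost without wild type sham array 1 or 2, or without knockout sham array 2 or 3. For Kcna4 these were the only arrays that mattered among those left out singly (1.18 to 1.33, adjusted p = 0.0556 to 0.0839), while Kcnv1 and Kcnq5 lost the call in 14 of 20 such fits (1.12 to 1.33, adjusted p = 0.0503 to 0.146, and 0.68 to 0.87, adjusted p = 0.0512 to 0.133) and Kcnab1 in 13 (0.55 to 0.7, adjusted p = 0.052 to 0.151). Without knockout sham array 3 no gene on the array was called for this difference in limma (4253 of 18193 at an unadjusted p under 0.05). The actin measure given above separated the sham groups by genotype, so it cannot be told apart from genotype on these arrays. With the actin measure as a covariate none of the 39 genes and 8 of all 18193 were called in limma (3804 at an unadjusted p under 0.05). Kcna4 stood at 1.09 in that fit (adjusted p = 0.0705). The part of this measure in the differences was not tested. Of the 6 medium spiny neuron markers 5 had a positive and 1 a negative difference between genotypes, with a median of 0.61 and none called. Their part was not tested either.

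Compared directly after MCAO, knockout and wild type arrays gave no call among the 39 genes (limma, 0 called; 4 at an unadjusted p under 0.05), where 0.044% of all genes were called, 0.0165% higher and 0.0275% lower. The differences ran from -0.44 for Kcnj4 to 0.75 for Kcnv1, which had the lowest adjusted p (0.127); 29 were positive, with a median of 0.06. The 2 groups of 7 arrays were separated for none of the 39 genes, against 0.247% of all genes upward and 0.121% downward. Kcnv1 was 6.62 to 8.03 in wild type and 7.74 to 8.91 in knockout mice, and Kcna4 6.41 to 7.19 and 6.69 to 7.75 (0.46, SE 0.17, adjusted p = 0.187).

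After sham surgery, 0 of 39 genes were called between the genotypes (limma; 8 at an unadjusted p under 0.05), where 6.05% of all genes were, 3.52% higher and 2.53% lower. Of all calls 58.2% were higher in knockout mice, 47.7% with median centring and 85.5% with quantile normalization repeated. The differences ran from -0.84 for Kcna4 (SE 0.25, adjusted p = 0.052) to 0.49 for Kcnj11 (SE 0.17, adjusted p = 0.0862), and 27 were negative, with a median of -0.19. The arrays of the groups were separated downward for 11 genes (28.2%, against 21.8% of all genes) and upward for 2 (5.13%, against 20.4%). Among them were Kcna4 at 7.85 to 8.25 in wild type and 6.95 to 7.63 in knockout mice, Kcnq5 at 9.25 to 9.59 and 8.67 to 9.08 (-0.63, SE 0.2, adjusted p = 0.0607) and Kcnj11 at 8.51 to 8.85 and 9.14 to 9.23. The actin measure was also separated between the sham groups, higher in knockout mice. With it as a covariate the median over the 39 genes was -0.02. On the sham arrays genotype and this measure cannot be told apart, and its part in the differences was not tested. All 6 medium spiny neuron markers were lower in knockout than in wild type sham mice, with a median of -0.41 and none called. Their mean was 8.75 to 11.23 (median 10.59) on the wild type and 9.13 to 10.9 (median 9.25) on the knockout sham arrays, with overlap. The part of this marker shift in the differences was not tested either. With only the 6 sham arrays in the fit, 7 of 39 genes (17.9%) were called, 1 higher and 6 lower, against 19% of all genes. These sham arrays also enter the MCAO changes and the difference between genotypes, so those results are not independent.

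In naive mice the knockout and wild type arrays appear to have been summarised apart, so genotype and processing cannot be told apart. Values equal to the last digit were found for 1744 to 2878 of 45101 probe sets in each of 21 pairs of knockout arrays, for 1 to 48 in 28 pairs of wild type arrays and for 0 in all 56 pairs across genotypes. The 1st percentile of the signals was 3.9 to 4.15 on wild type and 3.61 to 3.68 on knockout arrays. The planned fit called 4 of 39 genes, where 14.7% of all genes were called (6.37% higher, 8.31% lower): Kcnc4 (0.29) and Kcnj6 (0.25) higher and Kcnj2 (-0.37) and Kcnn2 (-0.71) lower in knockout mice (adjusted p = 0.0228, 0.014, 0.0016 and 0.000764). Nothing is read from these as an effect of genotype. Of 4 further Kcnj6 probe sets 2 pointed the other way, 1 of them called. Kcnj2 lay at 4.36 to 4.49 in wild type and 3.76 to 4.25 in knockout mice, near the 1st percentiles given above. Of all calls 43.4% were higher, and 8.85% with median centring, a setting that shifted the median over all genes from 0.05 to -0.1.

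Within each genotype the naive levels can still be described. Wild type array 6 stood apart: 25 of the 39 genes were below and 10 above every other wild type naive array, from -3.67 for Kcnj4 to 2.47 for Kcna4 relative to the median of the others. Its actin and Gapdh 3 prime minus 5 prime differences were 4.88 and 3.51. Without that array 12 of the 39 genes (30.8%) and 36.5% of all genes were called between the genotypes. Over the other 7 wild type arrays the highest and lowest values of a gene differed by 0.12 to 0.96 (median 0.37, most for Kcnn3), and over the 7 knockout arrays by 0.06 to 0.81 (median 0.26, most for Kcnj4). Kcnn2, a small-conductance calcium-activated channel gene, was 9.1 to 9.68 (median 9.6) on those wild type arrays, 9.95 on array 6 and 8.56 to 9.04 (median 8.81) on the knockout arrays. Kcnv1 lay at 9.29 to 9.7 (median 9.54), 9.01 on array 6, and 9.44 to 9.67 (median 9.52), and Kcna4 at 7.92 to 8.29 (median 8.04), 10.51 on array 6, and 7.96 to 8.44 (median 8.24). Leaving array 6 aside, the genotype sets did not overlap for 4 of the 39 genes (10.3%, against 14.6% of all genes), Kcns2, Kcnj2, Kcnmb4 and Kcnn2.

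**Figure D4:**
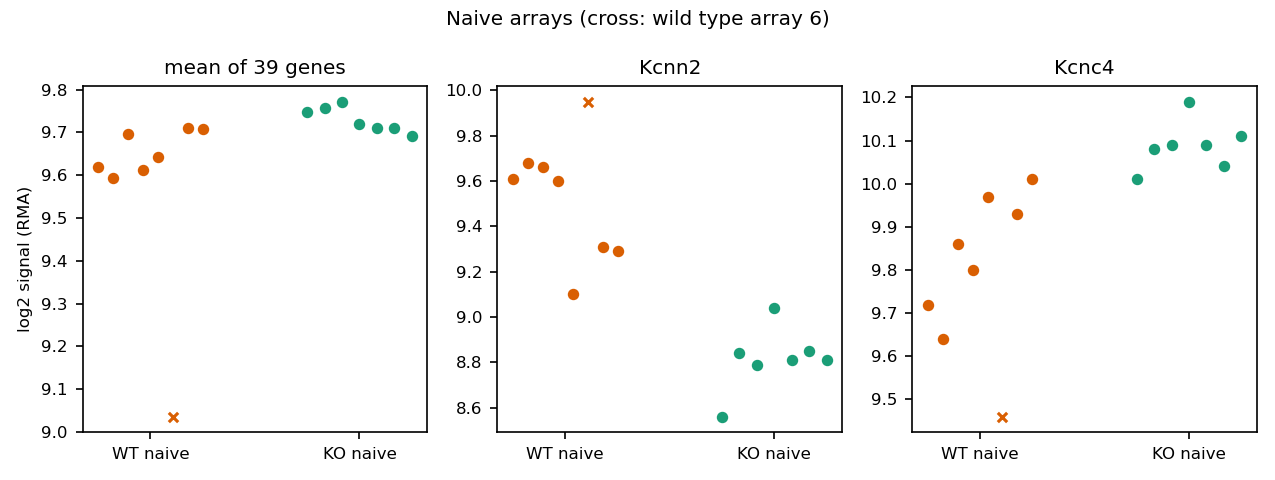
Log2 signal on the naive arrays by genotype (points; a cross marks wild type array 6) for the mean of the 39 genes, Kcnn2 and Kcnc4. Array 6 lies at 9.04 for the mean, where the other wild type arrays lie at 9.59 to 9.71; the genotypes were apparently summarised apart.

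Other potassium channel genes were taken from a second list of 56 symbols, of which 45 were measured. After MCAO 7.27% of all genes were called lower and 8.68% higher in wild type mice. Of the 45 listed here, 6 fell and 4 rose, with a median of 0.03. Those with the smallest adjusted p were Dpp10, an auxiliary subunit of Shal channels (-0.82, adjusted p = 0.000193), Kcnt2, a sodium-activated channel gene (-1.67, adjusted p = 0.000319), Kcnj16, an inward rectifier of astrocytes (-0.61, adjusted p = 0.00369), the auxiliary subunit gene Kcne4 (0.96, adjusted p = 0.00648), the silent modifier Kcng1 (-0.86, adjusted p = 0.0191) and Abcc8, the regulatory subunit of the neuronal ATP-sensitive channel (-0.69, adjusted p = 0.0211). The other 3 rises were those of Kcnj8 (0.7, adjusted p = 0.043), Kcnk13 (0.37, adjusted p = 0.0427) and Kcnk7 (0.5, adjusted p = 0.0444), and Kcna5, a further Shaker-type gene, fell (-1.36, adjusted p = 0.0408); these 4 were added after their values were seen. In knockout mice, where 8.9% of all genes were called lower and 16.1% higher, 6 of the 45 fell and 3 rose. The median over the 45 was -0.14, and Kcnj16 had the smallest adjusted p (-0.84, adjusted p = 0.000144). Abcc9 (0.73, adjusted p = 0.00603) and Kcnj8 (0.78, adjusted p = 0.0189), which together form the ATP-sensitive channel of mural cells, rose, as did Kcnk13 (0.45, adjusted p = 0.0109), a leak channel gene of microglia, while Kcnk4 (-0.51, adjusted p = 0.0118) and Kcng1 (-0.75, adjusted p = 0.0274) fell. The difference between genotypes was called for 2 of the 45, Kcnk7 (-0.97, adjusted p = 0.0213) and Kcnq1 (-0.73, adjusted p = 0.0486), against 9.59% of all genes. After sham surgery Kcnk7 was the 1 gene of the 45 called between genotypes (0.76, adjusted p = 0.0306), against 6.05% of all genes. In the naive fit, open to the separate processing described above, 4 of the 45 were higher and 4 lower in knockout mice. Of all genes 6.37% were higher and 8.31% lower. The smallest adjusted p-values among the 45 (limma, 0.000127 to 0.0133) were those of Kcnk15 (-0.49), Kcnj12 (0.5), Kcnj1 (-0.52), Kcnu1 (0.42), Kcne1 (-0.5) and Kcnk16 (-0.53).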

How the data were processed

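RNA of brain hemispheres was measured on 35 Affymetrix arrays, 20 after surgery and 15 naive. The deposited values are log2 signals that the submitters' processing notes credit to RMA; the version and genome build are not given in the sources used here. Per the labels the naive arrays were normalized apart. Of 45101 probe sets 64 were controls, 34945 had 1 gene symbol (34741 matched by Entrez ID), 932 several and 9160 none. Groups came from the labels. In R 4.3.3, limma 3.58.1 (lmFit, contrasts.fit, eBayes) was fitted to the 20 surgery and, as planned, to the 15 naive arrays, and adjusted over 18193 genes. The pipeline was tested on simulated data. The signal of the gene knocked out was not analysed here.

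The members, the other potassium channel genes and the markers were chosen with earlier results of these data known. Named were all members, with array values for those called, and up to 6 called genes of the second list per comparison with the smallest adjusted p. Kcnc4 after MCAO and the naive Kcnv1 and Kcna4 values were chosen after being seen. The other settings were an intensity trend plus a robust prior, dim genes left out (below the 30th percentile), probe set means, all probe sets, median centring, repeated quantile normalization, array weights, a replicate block, Gapdh and actin covariates, a threshold of 0.01, only the arrays compared, and each array left out. Leaving out MCAO array 4 of both genotypes and averaging close pairs were added after seeing the data. The number of arrays limits the precision.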

Additional observations from a re-analysis of the deposited data

Results flagged for a closer look

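The values of each called gene, and the mean of the 39 genes, were checked within each group of 7 or 8 MCAO or naive arrays. Among these 52 sets 3 held an array far from the others, and chance marks about 1 in 20 of independent sets. The sets share arrays and are not independent, so their count is not weighed against that rate. Naive genes not called were left out, such as Kcnj4, at 6.11 on wild type array 6 and 9.67 to 10.21 on the others. The sham groups, with 3 arrays each, were not checked in this way. Kcnf1 was 7.74 on wild type MCAO array 3, with 8.27 to 8.58 on the other 6. Kcnj3 was 6.64 on wild type MCAO array 4, with 7.48 to 8.09 on the others. The mean of the 39 genes was 9.04 on wild type naive array 6, with 9.59 to 9.71 on the other 7.

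The change after MCAO differed between genotypes by the test of the difference itself for Kcna4 (1.29), Kcnv1 (1.24), Kcnq5 (0.77) and Kcnab1 (0.66), knockout minus wild type on the log2 scale (limma, adjusted p = 0.0197, 0.0486, 0.047 and 0.0487). With 3 sham arrays a genotype, none of these calls held in all of the 33 other settings.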

How the results depend on the processing

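No listed gene called for MCAO against sham or for the difference between genotypes changed direction in any setting. The 3 knockout rises nevertheless shrank to 0 for Kcna6, 0.06 for Kcnip3 and 0.15 for Kcna1 in their lowest settings. The naive calls were followed by their counts alone. In wild type mice between 10 and 18 of the 39 genes were called lower and none higher over the settings other than leaving out an array, and 8 (without sham array 1) to 15 with an array left out; Kcna4, Kcnd2, Kcnv1, Kcnq3, Kcnq5, Kcnab1, Kcnip2 and Kcnip4 were called in all 24. In knockout mice 11 genes were called, 3 (without sham array 2) to 11 with an array left out. The count was 7 with only the arrays compared, 7 with close pairs averaged and 5 at adjusted p under 0.01. For the difference between genotypes 4 genes were called, 0 to 6 (without wild type MCAO array 4 or knockout MCAO array 1) with an array left out. The count was 1 without dim genes, 1 with probe set means, 1 with quantile normalization repeated, 1 with the Gapdh covariate, 1 over all probe sets, 1 with close pairs averaged, 0 with the actin covariate, 0 at adjusted p under 0.01 and 8 with array weights. Between genotypes after MCAO 0 were called, 0 with any array left out and 2 with the actin covariate. After sham surgery 0 were called, 0 to 3 (without knockout sham array 1) with an array left out, 12 with array weights, 7 with only the arrays compared, 4 without MCAO arrays 4, 1 with the Gapdh covariate and 1 with close pairs averaged. In naive mice 4 were called, 3 to 12 (without wild type array 6) with an array left out, 2 without dim genes, 1 with quantile normalization repeated, 19 with array weights, 11 with the Gapdh covariate, 11 with the actin covariate and 2 at adjusted p under 0.01. The stricter threshold lowers counts by construction; the cause of the other shifts was not tested.

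Of the arrays with the same number, 5 of 22 pairs of surgery arrays and 4 of 7 naive pairs correlated above 0.1 in their deviations from the group means (-0.28 to 0.34 and -0.09 to 0.36), and since not every pair did, the numbers were not taken to pair the arrays. With the replicate number as a block 15 genes were called in wild type, 7 in knockout mice, 2 for the difference between genotypes, 0 after MCAO, 0 after sham surgery and 3 in naive mice.

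Over all genes, calls for the difference between genotypes ranged from 0 (without knockout sham array 3) to 4100 (array weights) against 1744. Repeated quantile normalization gave 339 and the actin covariate 8. After sham surgery they were 1101, 5891 with array weights, 3451 with only the arrays compared and 0 without wild type sham array 2 or knockout sham array 3; after MCAO 8, and 986 with the actin covariate. For MCAO against sham they were 2901 in wild type, 1435 (without sham array 1) to 4472 (array weights) and 1286 at adjusted p under 0.01, and 4545 in knockout mice, 2337 (without sham array 3) to 7239 (array weights) and 2170 at that threshold. In naive mice they were 2669, from 608 (without dim genes) to 7637 (array weights).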
